A study of Mus musculus with 9 samples.

Results

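The SR and hnRNP splicing factors of the mouse were followed across 9 RNA-seq libraries from spleen. Members were taken by name: every gene whose symbol begins with Srsf and a digit or with Hnrnp, leaving out names that end in -ps. This gave 31 of the 56860 genes in the table, 11 of the SR family and 20 of the hnRNP family, and all 31 passed the filter on low counts. The rule reads names only, but the 2 families were picked with earlier results of these data known. The libraries form 3 groups of 3. They come from CIA mice treated with luteolin (LUT), a plant flavone, from CIA mice and from control mice, and each is labelled as CD4+ T cells of the spleen. The labels do not spell out CIA; the title of the series speaks of RA and of Th17 cells, a helper T cell type. Strain, age, sex and dose are not given, and neither is the source of the replicates (separate animals, pools or repeated libraries), so p-values measure only the spread between these samples.

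SR proteins and hnRNPs are the 2 large families of RNA-binding proteins that decide which exons are kept in an mRNA. SR proteins carry RNA-recognition domains and a tail rich in arginine and serine. They mostly bind exonic enhancers and recruit the spliceosome, and their tail is phosphorylated by the SRPK and CLK kinases. hnRNPs coat nascent transcripts and often bind silencers, where they compete with SR proteins. Genes of both families hold poison exons, whose inclusion sends the transcript to nonsense-mediated decay and so tunes the amount of protein. In T cells the choice of CD45 exons upon activation is the textbook case of such control, with hnRNP L and hnRNP LL as its regulators.

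Library totals were between 31234177 and 41815573 counts. Levels are CPM, that is counts scaled to library size by TMM, given as mean ± SD with n = 3. Each change is a log2 fold change ± SE from edgeR's quasi-likelihood test, with p-values adjusted by Benjamini and Hochberg's method over all 19348 tested genes. A gene is called higher or lower at an adjusted p below 0.05. Cd4, which defines the labelled cell type, stood at 104 ± 4.57 CPM in CIA with luteolin, 128 ± 39.6 CPM in CIA and 2.92 ± 0.639 CPM in the libraries labelled control. Directions against control therefore rest on libraries in which this marker was nearly absent. Cd3e, a chain of the T cell receptor complex, stood at 25.1 ± 1.71 CPM in CIA with luteolin, 38.6 ± 12.1 CPM in CIA and 13.5 ± 1.64 CPM in control. S100a9, a neutrophil transcript, was far more abundant, at 3971 ± 275, 6744 ± 1806 and 1648 ± 242 CPM in the same groups. In bulk RNA, fewer cells of a type and less RNA per cell cannot be told apart.

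The promoters of 4 hnRNP genes are printed because these genes were called in opposite directions in CIA against control and in CIA with luteolin against CIA. Hnrnpa1, Hnrnpa3 and Hnrnpm, the 3 with the largest changes of this kind, were lower in CIA and then higher with luteolin. Hnrnpdl is shown as an example of the reverse, in place of Hnrnpf, which has near-identical pseudogene copies. The 4 were chosen after their values were seen. The windows run from 250 bases before to 50 bases after the start, from RefSeq on build GRCm38.p6. Capitals mark matches on either strand to 6 motifs. The GC box was searched as the letters GGGCGG and the CCAAT box by the letters of its name. The E-box was searched as the letters CACGTG and the core of ETS factors as the letters CCGGAAG. The core of NRF1 sites was searched as the letters CATGCGC and the TATA box as the letters TATAAA. None of these motifs contains another.
Hnrnpa1, chr15:103240147-103240446, plus strand: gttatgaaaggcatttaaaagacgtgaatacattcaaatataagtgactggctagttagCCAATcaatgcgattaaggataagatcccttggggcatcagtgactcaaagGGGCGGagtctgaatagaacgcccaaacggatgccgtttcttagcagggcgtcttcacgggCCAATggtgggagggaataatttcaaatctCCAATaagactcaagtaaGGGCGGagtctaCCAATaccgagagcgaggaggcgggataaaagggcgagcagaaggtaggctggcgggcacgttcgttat
Hnrnpa3, chr2:75659009-75659308, plus strand: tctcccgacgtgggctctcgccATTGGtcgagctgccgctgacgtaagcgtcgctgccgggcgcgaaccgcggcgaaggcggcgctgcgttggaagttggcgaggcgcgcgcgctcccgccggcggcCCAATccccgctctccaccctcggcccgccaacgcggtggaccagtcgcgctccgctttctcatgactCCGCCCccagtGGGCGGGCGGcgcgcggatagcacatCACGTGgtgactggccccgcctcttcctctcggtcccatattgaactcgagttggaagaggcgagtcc
Hnrnpm, chr17:33685409-33685708, minus strand: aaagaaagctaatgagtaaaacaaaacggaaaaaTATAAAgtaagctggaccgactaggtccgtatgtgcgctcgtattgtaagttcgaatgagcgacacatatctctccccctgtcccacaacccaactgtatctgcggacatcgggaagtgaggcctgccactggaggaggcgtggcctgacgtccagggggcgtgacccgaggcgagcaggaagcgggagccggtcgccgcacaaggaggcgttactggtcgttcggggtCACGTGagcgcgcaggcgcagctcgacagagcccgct
Hnrnpdl, chr5:100039173-100039472, minus strand: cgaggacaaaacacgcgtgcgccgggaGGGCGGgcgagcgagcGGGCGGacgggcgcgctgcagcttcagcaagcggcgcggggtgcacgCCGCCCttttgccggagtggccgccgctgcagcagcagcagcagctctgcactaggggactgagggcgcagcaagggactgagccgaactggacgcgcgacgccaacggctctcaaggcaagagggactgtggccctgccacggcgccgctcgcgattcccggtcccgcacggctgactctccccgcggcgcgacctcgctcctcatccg
The 4 windows differed from each other in these letters. Hnrnpa1 held 4 CCAAT boxes and 2 GC boxes, Hnrnpa3 held 2 CCAAT boxes, 3 GC boxes and 1 E-box, Hnrnpm held 1 E-box and 1 TATA box, and Hnrnpdl held 3 GC boxes. A match in a window is a description of letters and not a binding site.

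Of the 31 members, 29 had RefSeq promoters, with 41 entries between them. Hnrnpll and Hnrnpul2 are named only. SR promoters were rich in CpG, with a median of 35 CpG and 69.0% GC over 14 entries. The 27 hnRNP entries had a median of 28 CpG and 66.3% GC, and all 32851 promoters a median of 7 CpG and 52.7% GC. GC boxes lay in 92.9% of SR entries, 77.8% of hnRNP entries and 35.7% of all promoters. The ETS core was found in 42.9% of SR entries, 14.8% of hnRNP entries and 8.86% of all. CCAAT boxes ran the other way, in 28.6% of SR entries, 63.0% of hnRNP entries and 37.4% of all. The E-box was in 0 of the SR entries, in 18.5% of hnRNP entries and in 7.15% of all. The NRF1 core was in 14.3%, 7.41% and 3.91% and the TATA box in 14.3%, 7.41% and 13.6% in the same order. These shares are descriptions, since entries of a gene share sequence.

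Nearly all members were among the well-expressed genes. Per kilobase of exon, which allows genes to be compared, Hnrnpa3 stood highest at a mean level of 593 CPM per kb over the 9 libraries, followed by Hnrnpa2b1 at 578, Hnrnpf at 434, Hnrnpa1 at 384 and Srsf5 at 379 CPM per kb. Srsf5 thereby ranked 103rd of the 19348 tested genes. The next SR gene, Srsf11, was at 117 CPM per kb. Srsf5 alone made up 44.5 ± 0.427% of the summed SR level per kb in CIA with luteolin, 43.9 ± 0.555% in CIA and 47.4 ± 3.05% in control. At the low end stood Srsf12, a tissue-restricted SR gene, with 2 to 18 counts per library and 0.102 CPM per kb, and Hnrnpll at 3.40 CPM per kb. Hnrnpll was nonetheless at 54.6 to 64.0 CPM in CIA with luteolin before the correction for its 11677 exonic bases.

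**Figure D1:**
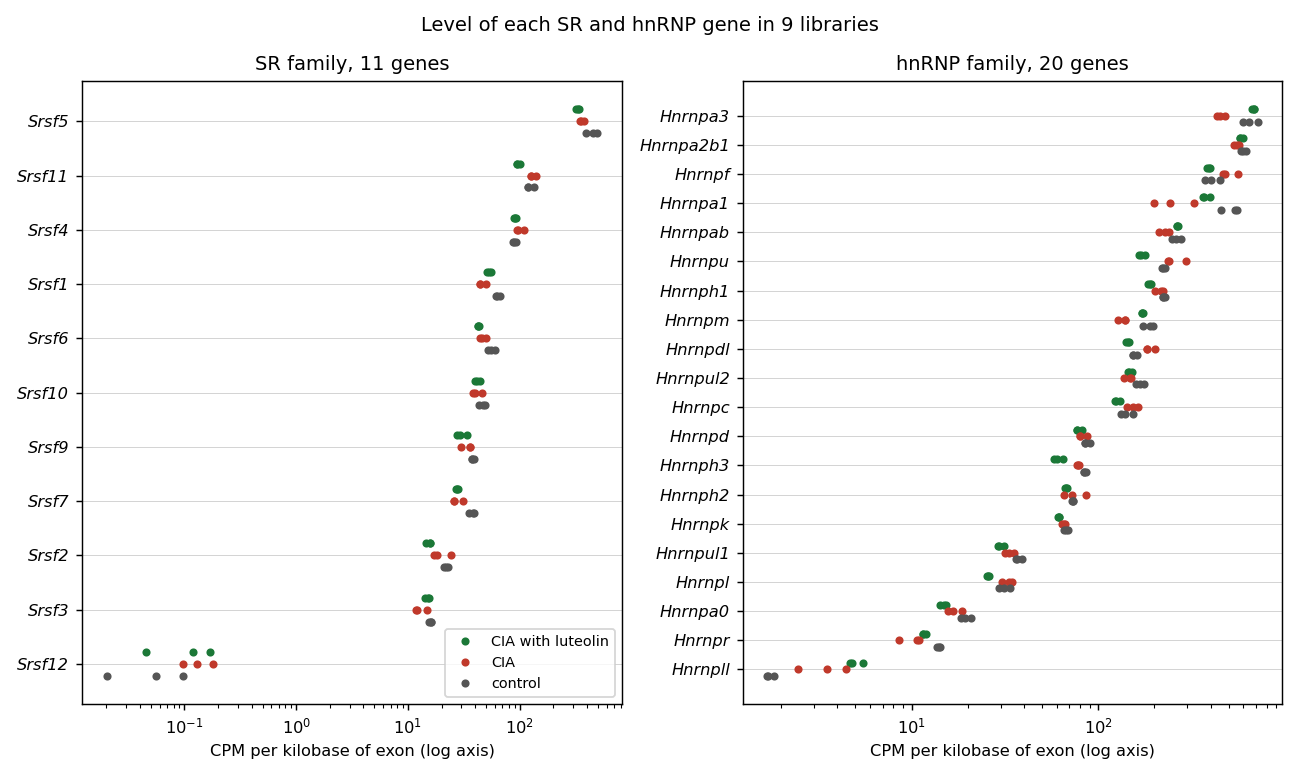
Level of each of the 31 genes in CPM per kilobase of exon (log axis), with a point per library in CIA with luteolin, CIA and control from top to bottom within each gene. The SR family is led by Srsf5 and the hnRNP family by Hnrnpa3 and Hnrnpa2b1, and Srsf12 and Hnrnpll are lowest in their families.

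Several members share sequence with other genes, which limits how well reads can be assigned. Exonic bases overlapped those of another gene in 4 of 11 SR and 11 of 20 hnRNP members. The overlap was above 25% of the exonic bases for Srsf4 (43.0%), Hnrnpab (29.1%), Hnrnpf (26.5%) and Srsf2 (25.3%). The antisense gene over Srsf4, Gm12992, had 87.1% as many counts as Srsf4, and Phykpl, antisense to Hnrnpab, had 41.3% as many as Hnrnpab. The strand setting of the counting is not given in the sources used here. How reads on the bases that these pairs share were assigned is therefore uncertain. Hnrnpf has 6 near-identical pseudogene copies, whose counts came to 31.2% of its own in CIA with luteolin, 31.5% in CIA and 35.6% in control, so its values are uncertain. Hnrnpa3 has 35 such copies, with counts of 3.53% of its own, and Hnrnpa1 has 9, with 1.47%. In GENCODE M21, 9 of the 11 SR genes (81.8%) and 10 of the 20 hnRNP genes have a transcript marked for nonsense-mediated decay, against 23.6% of 18248 protein-coding genes with counts. The members also have more annotated transcripts, with a median of 7 per SR gene and 8 per hnRNP gene against 4. The shares were not compared at equal numbers of transcripts. The table counts whole genes, so productive and decay-bound transcripts of a gene were not separated.

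The comparison of CIA with control asks how the splicing factors stand in the disease group. SR genes were lower in CIA or not called, and hnRNP genes went both ways. Of the 11 SR members, 0 were higher and 5 lower, namely Srsf1, Srsf3, Srsf5, Srsf6 and Srsf7, and 6 did not pass. Of the 20 hnRNP members, 3 were higher (Hnrnpll, Hnrnpf and Hnrnpdl), 6 were lower (Hnrnpa1, Hnrnpa3, Hnrnpm, Hnrnpr, Hnrnpab and Hnrnpul2) and 11 did not pass. Over all tested genes 26.6% were called higher and 24.5% lower, 51.1% in all. The lower hnRNP count is close to its share and the higher count below. For SR the lower count is above its share and the higher count below. None of this was tested. The median log2 fold change was -0.16 over the SR members and -0.10 over the hnRNP members, beside -0.01 over all tested genes. Libraries of the groups did not overlap for 7 SR and 13 hnRNP members, with 58.7% of all genes not overlapping. The SR count was 3 without control replicate 3, 3 without CIA replicate 2 and 3 when only the 6 libraries compared were fitted. Without CIA replicate 1, 1 SR gene was called higher, Srsf4, at 0.20. The hnRNP counts moved as well. Hnrnpf, Hnrnpab and Hnrnpul2 were not called without control replicate 1 or without control replicate 2. Hnrnpa0 (-0.27), Hnrnpa2b1 (-0.16) and Hnrnpu (0.26) were called without CIA replicate 1.

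Setting CIA with luteolin against CIA asks what differed with the treatment. The hnRNP family split: 5 members were higher with luteolin (Hnrnpa3, Hnrnpa1, Hnrnpll, Hnrnpm and Hnrnpab), 7 were lower (Hnrnpu, Hnrnpdl, Hnrnpf, Hnrnph3, Hnrnpl, Hnrnpc and Hnrnph1) and 8 did not pass. Of the SR members 0 were higher, 2 were lower (Srsf11 and Srsf2) and 9 did not pass. Over all tested genes 23.1% were higher and 24.2% lower, 47.3% in all. The SR calls were fewer than those shares, and the hnRNP calls were near them on the higher side and above them on the lower side, which was not tested. Median log2 fold changes were -0.13 over the SR members, -0.12 over the hnRNP members and -0.04 over all tested genes. Groups did not overlap for 6 SR and 17 hnRNP members, with 55.7% of all genes not overlapping. The higher hnRNP count was 3 without CIA replicate 2 and 3 without luteolin replicate 1, and the lower count was 4 without luteolin replicate 2. The count of higher SR members was 2 without CIA replicate 1, Srsf1 at 0.25 and Srsf3 at 0.33. The lower SR count was 1 without CIA replicate 3, without any luteolin library or with only the 6 libraries compared, since Srsf2 was then not called.

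CIA with luteolin against control gave more lower than higher members in both families. Of the SR members 0 were higher, 7 lower and 4 not called, with a median log2 fold change of -0.33. Of the hnRNP members 1 was higher, Hnrnpll, 9 were lower and 10 were not called, with a median of -0.15. Over all tested genes 24.2% were higher and 20.8% lower, 45.0% in all, and the median was -0.01. Groups did not overlap for 8 SR and 16 hnRNP members, beside 63.3% of all genes. The lower hnRNP count was 4 without luteolin replicate 2. Among the SR members, Srsf1 and Srsf9 were not called without control replicate 1, luteolin replicate 2 or luteolin replicate 3. The 3 comparisons share libraries pairwise, so their results are not independent of each other.

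**Figure D2:**
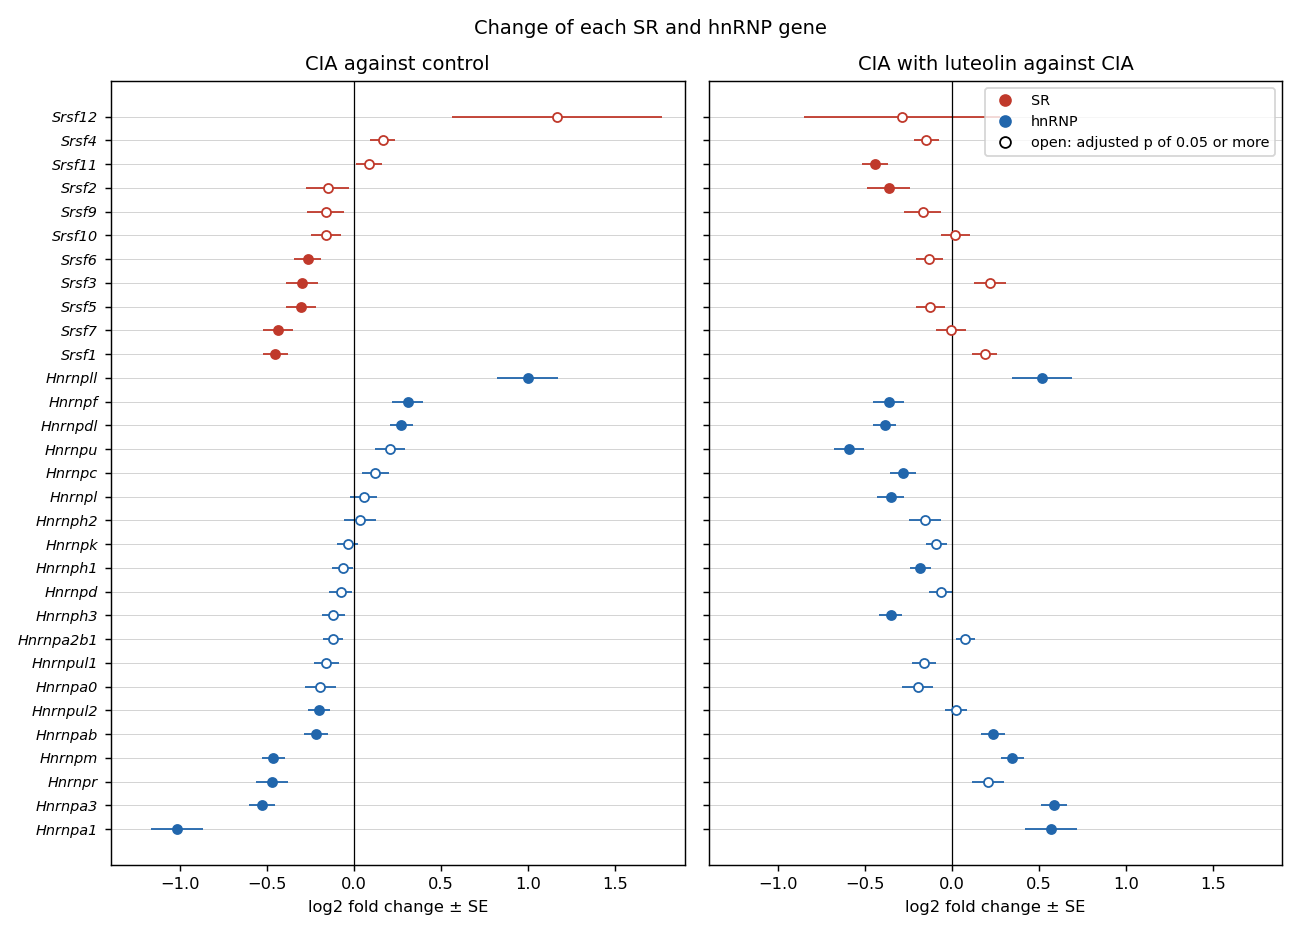
Log2 fold change ± SE of each of the 31 genes in CIA against control (left) and CIA with luteolin against CIA (right), with SR genes in red above hnRNP genes in blue, and open points for an adjusted p of 0.05 or more. Hnrnpa1 is lowest at -1.02 and Hnrnpll is at 0.998 on the left, and Hnrnpu is lowest at -0.59 on the right.

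Among the SR proteins, Srsf1 showed the largest called difference in CIA. Srsf1, the founding SR protein, which binds exonic enhancers (chromosome 11, 87938199 to 87944581, build mm39, plus strand), had 301, 313 and 288 CPM in CIA with luteolin, 284, 254 and 254 CPM in CIA and 377, 354 and 353 CPM in control. All CIA libraries were below all control libraries, and the luteolin libraries lay between. The change was -0.45 ± 0.07 in CIA against control (adjusted p = 0.00059), 0.19 ± 0.07 with luteolin against CIA (adjusted p = 0.0547) and -0.27 ± 0.07 with luteolin against control (adjusted p = 0.0127). Srsf7, an SR protein with a zinc knuckle, had 98.3, 99.1 and 95.5 CPM in CIA with luteolin, 110, 92.2 and 91.7 CPM in CIA and 135, 126 and 137 CPM in control. Both CIA groups were below control and overlapped each other. Srsf7 was at -0.44 ± 0.09 in CIA against control (adjusted p = 0.00195), -0.01 ± 0.09 with luteolin against CIA (adjusted p = 0.961) and -0.44 ± 0.09 with luteolin against control (adjusted p = 0.00197). The call of Srsf1 with luteolin against control was lost without control replicate 1, luteolin replicate 2 or luteolin replicate 3, at -0.23 to -0.24.

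Srsf5, the most abundant SR transcript per kb, had 1355, 1325 and 1273 CPM in CIA with luteolin, 1422, 1390 and 1496 CPM in CIA and 1973, 1795 and 1557 CPM in control. The 3 groups did not overlap. Its change was -0.31 ± 0.08 in CIA against control (adjusted p = 0.0117) and -0.43 ± 0.08 with luteolin against control (adjusted p = 0.00208). Srsf6, which binds exonic enhancers as Srsf5 does, had 202, 203 and 207 CPM in CIA with luteolin, 238, 210 and 222 CPM in CIA and 251, 264 and 290 CPM in control. Its libraries kept the same order without overlap, at -0.27 ± 0.08 in CIA against control (adjusted p = 0.0151) and -0.40 ± 0.08 with luteolin against control (adjusted p = 0.002). Srsf3, the smallest SR protein, which also acts in mRNA export, had 112, 122 and 120 CPM in CIA with luteolin, 116, 94.8 and 94.1 CPM in CIA and 123, 127 and 126 CPM in control. CIA replicate 1 overlapped the luteolin libraries, and its change in CIA against control was -0.30 ± 0.09 (adjusted p = 0.0199). In CIA against control the call of Srsf3 was lost without control replicate 2 (-0.29), control replicate 3 (-0.29) or CIA replicate 2 (-0.25), and that of Srsf6 without control replicate 3 (-0.21) or CIA replicate 2 (-0.23).

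Srsf11 and Srsf2 were not called in CIA and were lower with luteolin. Srsf11, an SR protein of the spliceosome (chromosome 3, 157716110 to 157742276, build mm39, minus strand), had 855, 792 and 799 CPM in CIA with luteolin, 1075, 1056 and 1193 CPM in CIA and 1127, 1010 and 1000 CPM in control. The luteolin libraries lay below the other 6, and CIA and control overlapped. Its change was -0.44 ± 0.08 with luteolin against CIA (adjusted p = 0.000855) and 0.08 ± 0.08 in CIA against control (adjusted p = 0.377). Srsf2, an SR protein that stays in the nucleus, had 47.0, 46.9 and 42.5 CPM in CIA with luteolin, 50.3, 54.0 and 71.3 CPM in CIA and 64.7, 62.6 and 68.0 CPM in control. CIA replicate 3 was above every control library, and the other CIA libraries were below them all. Srsf2 was at -0.36 ± 0.12 with luteolin against CIA (adjusted p = 0.0306), at -0.20 without CIA replicate 3, and at -0.52 ± 0.12 with luteolin against control (adjusted p = 0.00577). Its call against CIA was also lost without luteolin replicate 1 (-0.38), 2 (-0.33) or 3 (-0.31).

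The other SR members were called in at most 1 comparison. Srsf9 was at -0.33 ± 0.11 with luteolin against control (adjusted p = 0.0258), a call lost without any single control library or without luteolin replicate 2 or 3, at -0.21 to -0.35. Srsf10, which represses splicing when dephosphorylated, was at -0.16 ± 0.09 in CIA against control (adjusted p = 0.132). Srsf4, one of the longer SR proteins, was at 0.16 ± 0.07 in CIA against control (adjusted p = 0.0839). Srsf12 had 6, 15 and 18 counts in CIA with luteolin, 11, 14 and 17 in CIA and 7, 12 and 2 in control, too few to place it. These 3 genes were called in none of the comparisons.

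**Figure D3:**
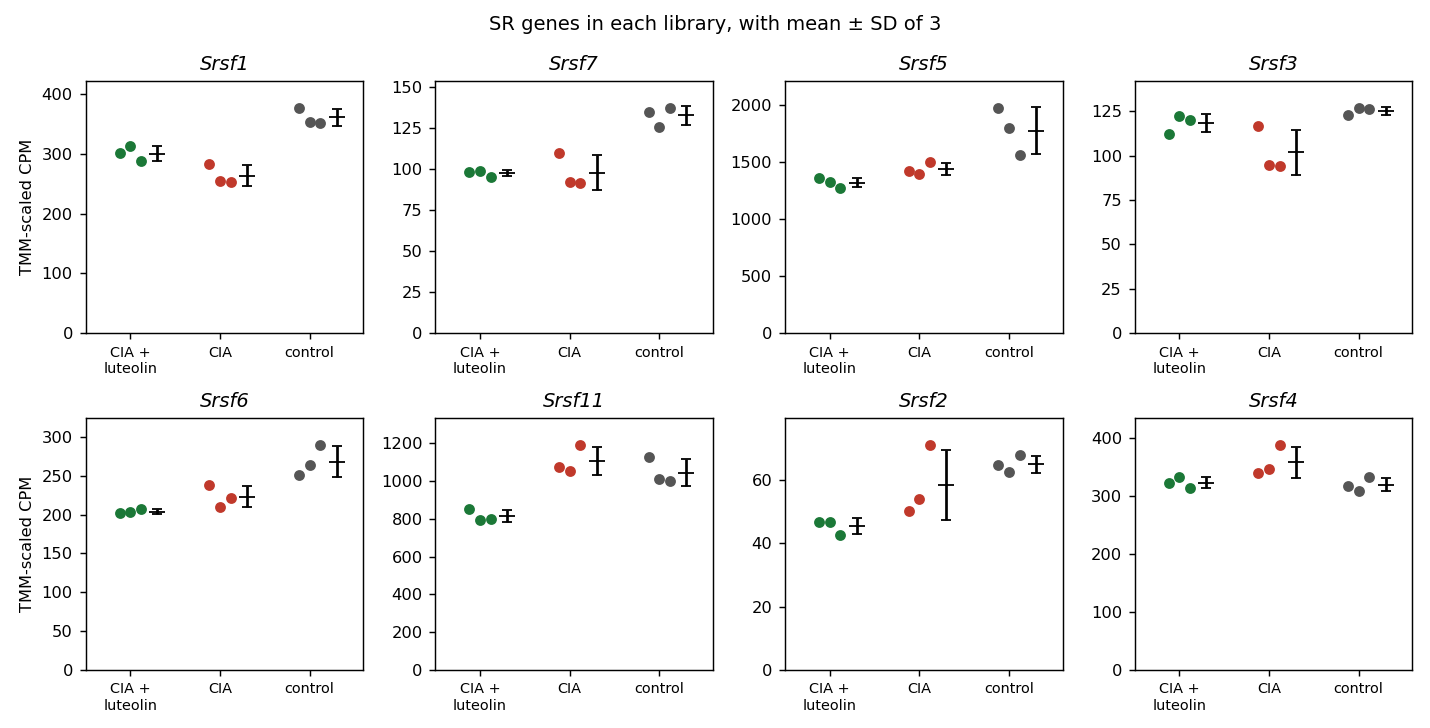
TMM-scaled CPM of 8 SR genes in the libraries of CIA with luteolin, CIA and control, with the mean ± SD of 3 beside the points and axes from 0. Srsf1, Srsf7, Srsf5 and Srsf6 are lower in both CIA groups than in control, and Srsf11 is lower in the luteolin libraries, at 792 to 855 CPM.

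The A/B hnRNPs, which bind UAG-containing silencers, held the largest fall in CIA. Hnrnpa1, the classical antagonist of Srsf1 at splice sites (chromosome 15, 103148859 to 103155119, build mm39, plus strand), had 1167, 1257 and 1155 CPM in CIA with luteolin, 1022, 761 and 630 CPM in CIA and 1711, 1745 and 1435 CPM in control. The 3 groups did not overlap, and CIA was the most uneven, at 804 ± 200 CPM. The change was -1.02 ± 0.15 in CIA against control (adjusted p = 0.000357), 0.57 ± 0.15 with luteolin against CIA (adjusted p = 0.00977) and -0.45 ± 0.15 with luteolin against control (adjusted p = 0.0304). The last call was lost without control replicate 1 or 2 or any luteolin library, at -0.40 to -0.43. Hnrnpa3, the most abundant member per kb (chromosome 2, 75489605 to 75499751, build mm39, plus strand), had 3694, 3680 and 3604 CPM in CIA with luteolin, 2563, 2324 and 2414 CPM in CIA and 3868, 3465 and 3208 CPM in control. CIA lay below the other groups, and these overlapped. Hnrnpa3 was at -0.53 ± 0.07 in CIA against control (adjusted p = 0.00028), 0.59 ± 0.07 with luteolin against CIA (adjusted p = 0.000126) and 0.06 ± 0.07 with luteolin against control (adjusted p = 0.554).

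Hnrnpa2b1 was called in none of the comparisons. This gene, whose product also sorts small RNAs, had 3922, 3763 and 3797 CPM in CIA with luteolin, 3761, 3498 and 3626 CPM in CIA and 4073, 3841 and 3942 CPM in control. CIA libraries were below both other groups without overlap, at -0.12 ± 0.06 in CIA against control (adjusted p = 0.0919) and 0.08 ± 0.06 with luteolin against CIA (adjusted p = 0.288). Hnrnpa0, a binder of AU-rich elements, was at -0.39 ± 0.09 with luteolin against control (adjusted p = 0.00478) and was not called in the other comparisons. Within the summed hnRNP level per kb, Hnrnpa1 held 10.5 ± 0.486% in CIA with luteolin, 7.34 ± 1.78% in CIA and 13.1 ± 1.11% in control. The share of Hnrnpa3 was 18.8 ± 0.0928%, 13.0 ± 0.435% and 16.5 ± 1.04% in these groups.

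Hnrnpab and Hnrnpdl are relatives of Hnrnpd and moved in opposite directions. Hnrnpab, a binder of RNA and of DNA, was lower in CIA than in control at -0.22 ± 0.07 (adjusted p = 0.0219) and higher with luteolin than in CIA at 0.23 ± 0.07 (adjusted p = 0.0177). The first call was lost without control replicate 1 (-0.19), control replicate 2 (-0.23) or CIA replicate 2 (-0.18), and the second without CIA replicate 2 (0.19) or luteolin replicate 1 (0.24). Hnrnpdl, known to limit its own amount through transcripts sent to decay (chromosome 5, 100181436 to 100187523, build mm39, minus strand), had 702, 681 and 698 CPM in CIA with luteolin, 879, 875 and 969 CPM in CIA and 740, 742 and 775 CPM in control. The CIA libraries were highest and the luteolin libraries lowest, without overlap. Hnrnpdl was at 0.27 ± 0.06 in CIA against control (adjusted p = 0.00537) and -0.39 ± 0.06 with luteolin against CIA (adjusted p = 0.000704). Hnrnpd itself, which sends AU-rich mRNAs to decay, was called in none of the comparisons, at -0.08 ± 0.07 in CIA against control (adjusted p = 0.346) and -0.06 ± 0.07 with luteolin against CIA (adjusted p = 0.456). Hnrnpc, a binder of uridine tracts, was lower with luteolin than in CIA, at -0.28 ± 0.08 (adjusted p = 0.012). That call was lost without luteolin replicate 2 (-0.22) or 3 (-0.26).

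The F/H hnRNPs bind runs of guanines. Hnrnpf was higher in CIA than in control at 0.31 ± 0.09 (adjusted p = 0.0148) and lower with luteolin than in CIA at -0.36 ± 0.09 (adjusted p = 0.00677), with the limit of its pseudogene copies given above. The first call was lost without control replicate 1 (0.24) or 2 (0.29), and the second without luteolin replicate 2 (-0.30). Hnrnph3 and Hnrnph1 were lower with luteolin than in CIA. Hnrnph3 was at -0.35 ± 0.07 (adjusted p = 0.00161) and Hnrnph1 at -0.18 ± 0.06 (adjusted p = 0.0297), the Hnrnph1 call being lost without control replicate 2 (-0.18) or luteolin replicate 1 (-0.17), 2 (-0.12) or 3 (-0.18). Against control, luteolin gave -0.47 ± 0.07 for Hnrnph3 (adjusted p = 0.00029) and -0.25 ± 0.06 for Hnrnph1 (adjusted p = 0.007), and the Hnrnph1 call was lost without luteolin replicate 2 (-0.18). Hnrnph2 was not called in any comparison.

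Hnrnpll, which silences the variable exons of CD45 in T cells, was the only member higher in all 3 comparisons. It lies on chromosome 17, 80336916 to 80369763, build mm39, minus strand, and had 64.0, 54.6 and 55.9 CPM in CIA with luteolin, 28.8, 40.9 and 52.1 CPM in CIA and 19.7, 21.3 and 19.97 CPM in control. The groups did not overlap, and the CIA libraries were widely spread. Hnrnpll was at 0.998 ± 0.18 in CIA against control (adjusted p = 0.00101), 0.52 ± 0.17 with luteolin against CIA (adjusted p = 0.0295) and 1.52 ± 0.18 with luteolin against control (adjusted p = 8.41e-05). The middle call was lost without CIA replicate 2 (0.53), luteolin replicate 1 (0.45) or luteolin replicate 3 (0.56), and the change was 0.33 without CIA replicate 1 and 0.74 without CIA replicate 3. T cell markers moved in part with it. Their summed level was 481 to 505 CPM in CIA with luteolin, 487 to 809 CPM in CIA and 268 to 295 CPM in control. In CIA against control 10 of the 12 were higher and 1 was lower. The lower one was Cd8a, at 4.15 ± 0.827 CPM in CIA with luteolin, 4.77 ± 0.678 CPM in CIA and 17.6 ± 2.83 CPM in control. Between CIA with luteolin and CIA, 0 of the 12 were higher and 4 were lower. Their part in the Hnrnpll values was not tested. Hnrnpl, its close relative and a binder of CA repeats, was lower with luteolin than in CIA at -0.35 ± 0.08 (adjusted p = 0.00362) and lower than in control at -0.30 ± 0.08 (adjusted p = 0.00942), a call lost without luteolin replicate 2 (-0.25).

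Hnrnpm, a binder of GU-rich RNA (chromosome 17, 33865207 to 33905834, build mm39, minus strand), had 1381, 1361 and 1359 CPM in CIA with luteolin, 1100, 1011 and 1113 CPM in CIA and 1559, 1504 and 1387 CPM in control. The groups did not overlap. Its change was -0.46 ± 0.07 in CIA against control (adjusted p = 0.000317) and 0.35 ± 0.07 with luteolin against CIA (adjusted p = 0.0018). Hnrnpr, which shares its domain layout with Syncrip, had 256, 265 and 255 CPM in CIA with luteolin, 244, 238 and 190 CPM in CIA and 313, 316 and 303 CPM in control. The groups did not overlap. Hnrnpr was at -0.47 ± 0.09 in CIA against control (adjusted p = 0.00187), 0.21 ± 0.09 with luteolin against CIA (adjusted p = 0.0887) and -0.26 ± 0.09 with luteolin against control (adjusted p = 0.0377). The last call was lost on leaving out any of the 6 libraries compared, at -0.23 to -0.28.

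Hnrnpu, the scaffold attachment factor that ties RNA to chromatin (chromosome 1, 178148673 to 178165362, build mm39, minus strand), had the largest fall of the hnRNP members with luteolin against CIA. It had 2067, 1967 and 1908 CPM in CIA with luteolin, 2757, 2767 and 3441 CPM in CIA and 2651, 2535 and 2576 CPM in control. The luteolin libraries lay below the other 6. The change was -0.59 ± 0.09 with luteolin against CIA (adjusted p = 0.000315), -0.39 ± 0.09 with luteolin against control (adjusted p = 0.00453) and 0.21 ± 0.09 in CIA against control (adjusted p = 0.067). Without CIA replicate 1 or 2, Hnrnpu was also called higher in CIA than in control, at 0.26. Its relatives Hnrnpul1 and Hnrnpul2 were not called with luteolin against CIA. Hnrnpul1 was at -0.32 ± 0.07 with luteolin against control (adjusted p = 0.00389). Hnrnpul2 was at -0.20 ± 0.07 in CIA against control (adjusted p = 0.0239) and -0.18 ± 0.07 with luteolin against control (adjusted p = 0.0437). The first of these calls was lost without control replicate 1 or 2 or CIA replicate 3, at -0.16 to -0.21, and the second without any luteolin library, control replicate 1 or 2 or CIA replicate 2, at -0.14 to -0.18. Hnrnpk, a binder of cytosine-rich RNA, was called in none of the comparisons, at -0.09 ± 0.06 with luteolin against CIA (adjusted p = 0.233).

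**Figure D4:**
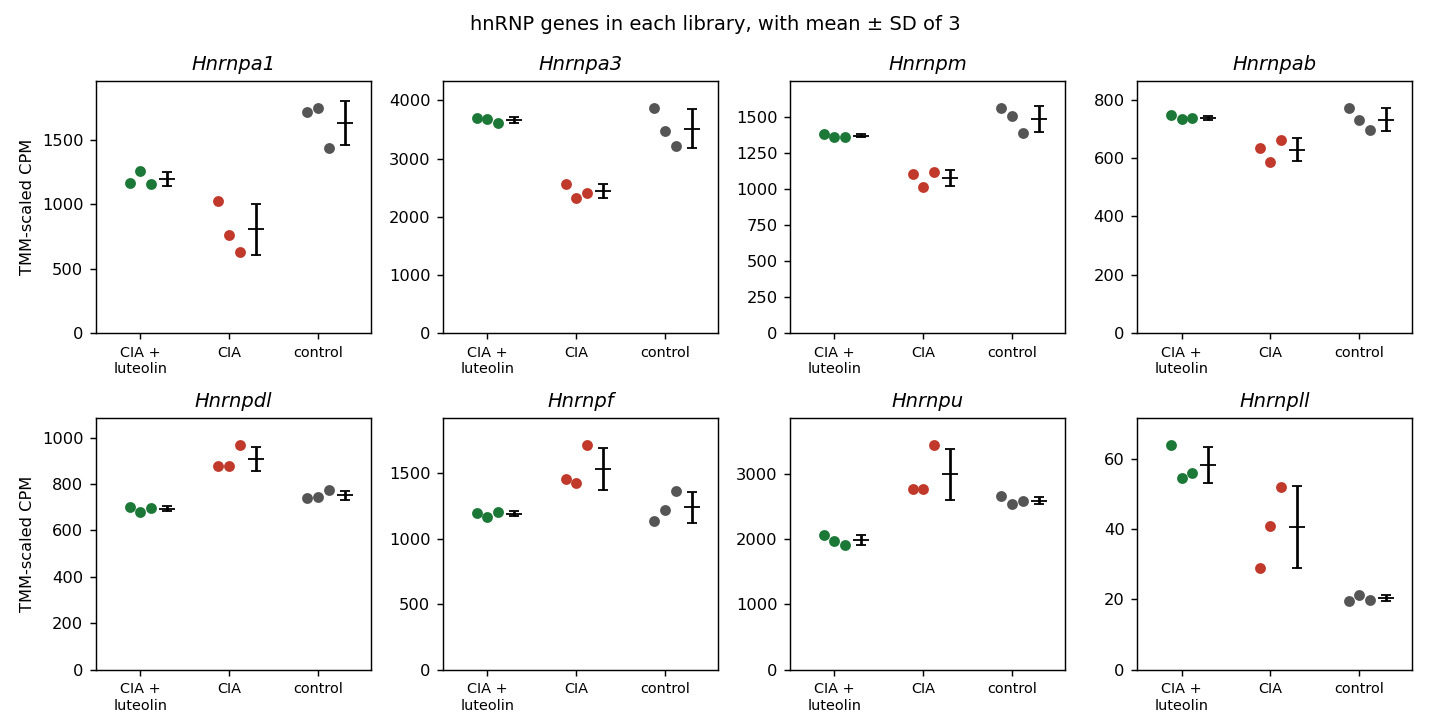
TMM-scaled CPM of 8 hnRNP genes in the libraries of CIA with luteolin, CIA and control, with the mean ± SD of 3 beside the points and axes from 0. CIA is lowest for Hnrnpa1, Hnrnpa3, Hnrnpm and Hnrnpab and highest for Hnrnpdl, Hnrnpf and Hnrnpu, and Hnrnpll is highest with luteolin at 54.6 to 64.0 CPM.

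Summed over the family, SR transcripts came to 3565 ± 69.7 CPM in CIA with luteolin, 3992 ± 158 CPM in CIA and 4479 ± 237 CPM in control. The 3 groups did not overlap, with 3498 to 3637, 3824 to 4138 and 4267 to 4735 CPM. Srsf5 and Srsf11 made up most of the SR sum. Srsf5 came to 1318 CPM in CIA with luteolin, 1436 CPM in CIA and 1775 CPM in control. Srsf11 came to 815, 1108 and 1045 CPM in the same groups. The SR sum therefore does not describe each member, and 9 of the 11 were not called with luteolin against CIA. hnRNP transcripts came to 19576 ± 253 CPM in CIA with luteolin, 19339 ± 788 CPM in CIA and 21549 ± 710 CPM in control. The sum with luteolin was 1.01 times that of CIA, and 0.969 times with upper-quartile scaling, so the direction of that small difference depends on the scaling. Both CIA groups were below control for hnRNP sums, at 19339 to 19843 CPM with luteolin, 18470 to 20005 CPM in CIA and 20944 to 22331 CPM in control. These sums are descriptions without a test.

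Markers of other cell types moved between the same groups. The summed level of 16 genes of dividing cells was 2790 to 2895 CPM in CIA with luteolin, 611 to 771 CPM in CIA and 1708 to 1745 CPM in control. In CIA against control 15 of the 16 were lower, and with luteolin against CIA all 16 were higher. Hnrnpa1, Hnrnpa3, Hnrnpm and Hnrnpab had the same directions, and Hnrnpdl and Hnrnpf the reverse in both. These are the members called in opposite directions in the 2 comparisons. Each of them therefore had to run either with or against these markers, and a link was not tested. With luteolin against CIA, 5 hnRNP members were higher and 7 lower, and 0 SR members were higher and 2 lower. Mki67, a marker of dividing cells, stood at 1446 ± 14.9 CPM in CIA with luteolin, 253 ± 33.4 CPM in CIA and 756 ± 6.62 CPM in control. The 10 B cell genes summed to 436 to 539 CPM with luteolin, 308 to 1824 CPM in CIA and 2127 to 2216 CPM in control, with 0 higher and 6 lower in CIA than in control and 0 higher and 4 lower with luteolin than in CIA. Cd79a among them stood at 26.2 ± 3.61 CPM with luteolin, 52.8 ± 28.6 CPM in CIA and 116 ± 6.14 CPM in control. In CIA replicates 1, 2 and 3 the B cell sum was 1824, 1051 and 308 CPM, and the T cell sum 487, 744 and 809 CPM. The sum of neutrophil and granulocyte precursor genes was 7076, 10651 and 11917 CPM in that order. Macrophage, erythroid and dividing-cell sums did not run in a single order. The part of this order in the spread of members within CIA was not tested.

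The neutrophil and erythroid lists did not move as a block with luteolin, and the erythroid sum rests on a single gene. The 14 neutrophil and granulocyte precursor genes summed to 8857 to 9302 CPM in CIA with luteolin, 7076 to 11917 CPM in CIA and 2218 to 2573 CPM in control. In CIA against control 12 were higher and 0 lower, and with luteolin against CIA 6 were higher and 8 lower. Mpo, a granule enzyme of precursors, stood at 261 ± 28.3 CPM with luteolin, 1.54 ± 0.339 CPM in CIA and 2.35 ± 1.30 CPM in control. Ngp, another precursor transcript, stood at 2268 ± 28.7, 262 ± 54.5 and 130 ± 18.6 CPM in the same groups. Mmp9, a gene of mature neutrophils, ran otherwise, at 50.8 ± 1.9, 173 ± 45.1 and 26.4 ± 2.32 CPM. The 12 macrophage genes summed to 661 to 771 CPM with luteolin, 168 to 218 CPM in CIA and 271 to 367 CPM in control, with 0 higher and 10 lower in CIA than in control and all 12 higher with luteolin than in CIA. Marco, a scavenger receptor, stood at 40.8 ± 6.45 CPM with luteolin, 0.592 ± 0.260 CPM in CIA and 31.8 ± 13.2 CPM in control, whereas Csf1r stood at 284 ± 32.4, 75.2 ± 15.3 and 65.2 ± 1.78 CPM. Of the 12 erythroid genes 8 were tested, 0 of them called in CIA against control, and 1 higher and 5 lower with luteolin against CIA. Their sum of 98.0 to 112 CPM with luteolin, 78.4 to 107 CPM in CIA and 77.1 to 79.1 CPM in control was mostly Tfrc, the transferrin receptor, which dividing cells also express, at 105 ± 7.66 CPM with luteolin, 83.1 ± 15.0 CPM in CIA and 72.7 ± 2.10 CPM in control. Mpo, Ngp, Mmp9, Marco and Tfrc were chosen after their values were seen. No marker was at 0 in every library. The part of these cell types in the SR and hnRNP values was not tested.

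Genes that act with these families were set beside them. Of 24 SR-related proteins and SR kinases, 7 were higher and 3 lower in CIA than in control, and 1 was higher and 14 lower with luteolin than in CIA, with a median of -0.29 in the second comparison. Over all tested genes the shares were 26.6% higher and 24.5% lower in CIA against control, and 23.1% and 24.2% with luteolin against CIA. The 7 higher genes in CIA are near the background. The 14 lower with luteolin are above their share, and the other 2 counts are below theirs, which was not tested. The count of 1 was 2 without CIA replicate 1. Clk1 and Clk4, nuclear kinases of SR proteins, were at 418 ± 9.32 and 251 ± 13.7 CPM in CIA with luteolin, 714 ± 33.4 and 393 ± 34.0 CPM in CIA and 601 ± 18.5 and 292 ± 17.5 CPM in control. With luteolin against CIA, Clk1 was at -0.77 ± 0.06 (adjusted p = 6.74e-06) and Clk4 at -0.65 ± 0.08 (adjusted p = 0.000143). Srpk1, a kinase that phosphorylates SR proteins in the cytoplasm, was at 0.61 ± 0.09 in CIA against control (adjusted p = 0.000337) and -0.58 ± 0.09 with luteolin against CIA (adjusted p = 0.000415). Rsrc1, an SR-related protein, ran the other way, at -0.93 ± 0.17 in CIA against control (adjusted p = 0.00146) and 1.01 ± 0.17 with luteolin against CIA (adjusted p = 0.000927). Pnn, a nuclear SR-related protein, was at -0.51 ± 0.08 in CIA against control (adjusted p = 0.000392).

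Of 56 core spliceosome genes, 6 were higher and 24 lower in CIA than in control, and 17 were higher and 10 lower with luteolin than in CIA. The shares over all tested genes were 26.6% higher and 24.5% lower in CIA, and 23.1% and 24.2% with luteolin. In CIA the lower count is above its share and the higher count below. With luteolin the higher count is somewhat above its share and the lower count somewhat below. None of this was tested. Prpf31, a protein of the tri-snRNP, was at 290 ± 16.1 CPM in CIA with luteolin, 125 ± 14.1 CPM in CIA and 239 ± 32.5 CPM in control, a change of -0.93 ± 0.11 in CIA (adjusted p = 0.000118) and 1.21 ± 0.11 with luteolin (adjusted p = 1.65e-05). Snrpb2, a snRNP protein, was at -0.40 ± 0.10 in CIA against control and 0.81 ± 0.10 with luteolin against CIA (adjusted p = 7.72e-05). Sf3b1, which recognises the branch point, was at 0.41 ± 0.07 in CIA against control (adjusted p = 0.00103) and -0.62 ± 0.07 with luteolin against CIA (adjusted p = 7.90e-05). Dhx38, a helicase of the catalytic steps, was at 0.74 ± 0.09 in CIA against control (adjusted p = 0.000122) and -0.29 ± 0.09 with luteolin against CIA (adjusted p = 0.0213), the second call being lost without luteolin replicate 1 (-0.28) or 2 (-0.21) and the change -0.18 without CIA replicate 3. Lsm7, a ring protein of a snRNP, was at -0.58 ± 0.09 in CIA against control (adjusted p = 0.000605). The higher count in CIA was 3 without control replicate 1 or 2 or any luteolin library, and the lower count with luteolin was 3 to 6 without a luteolin library.

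Of 38 other splicing regulators 36 were tested, and 6 were higher and 13 lower in CIA than in control, and 7 higher and 12 lower with luteolin than in CIA. In total these calls, 19 in each comparison, are near the shares of all tested genes called, 51.1% and 47.3%. By direction those shares were 26.6% higher and 24.5% lower in CIA, and 23.1% and 24.2% with luteolin. The lower counts are above them and the higher counts below, which was not tested. With luteolin against control 1 was higher and 22 lower, beside 24.2% and 20.8% of all tested genes. The count of 6 was 3 without control replicate 2, and the count of 7 was 4 without luteolin replicate 1. Rbm3, a cold-inducible RNA-binding protein, was at 358 ± 13.0 CPM in CIA with luteolin, 206 ± 11.5 CPM in CIA and 463 ± 25.6 CPM in control, which is -1.17 ± 0.07 in CIA (adjusted p = 3.14e-06) and 0.80 ± 0.07 with luteolin (adjusted p = 1.40e-05). Cirbp, its cold-inducible relative, was at -1.37 ± 0.17 in CIA against control (adjusted p = 0.000116). Fubp1, a binder of single-stranded nucleic acid, was at -0.84 ± 0.08 in CIA (adjusted p = 2.63e-05) and 0.43 ± 0.08 with luteolin (adjusted p = 0.00128). Celf1, a binder of GU-rich elements, was at -0.58 ± 0.07 with luteolin (adjusted p = 0.000119), and Safb2, a scaffold attachment protein, at -0.41 ± 0.05 (adjusted p = 0.000153).

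Of 16 genes of nonsense-mediated decay and the exon junction complex, 3 were higher and 8 lower in CIA than in control, and 4 were higher and 5 lower with luteolin than in CIA. Over all tested genes 26.6% were higher and 24.5% lower in CIA, and 23.1% and 24.2% with luteolin. The counts with luteolin are near these shares. In CIA the lower count is above its share, which was not tested. The count of 3 was 1 without control replicate 2. Upf3a, a decay factor, was at 192 ± 7.21 CPM in CIA with luteolin, 106 ± 24.4 CPM in CIA and 256 ± 19.2 CPM in control, which is -1.27 ± 0.14 in CIA (adjusted p = 6.60e-05) and 0.86 ± 0.14 with luteolin (adjusted p = 0.000578). Its paralog Upf3b was at -0.43 ± 0.08 in CIA (adjusted p = 0.00127) and -0.03 ± 0.08 with luteolin (adjusted p = 0.802). Magoh, a core subunit of the exon junction complex, was at -0.52 ± 0.09 in CIA (adjusted p = 0.00103) and 0.30 ± 0.09 with luteolin (adjusted p = 0.021), the second call being lost without luteolin replicate 1 (0.31) or 3 (0.30). Casc3, another core subunit, was at -0.73 ± 0.08 with luteolin (adjusted p = 3.35e-05), with an antisense gene, Gm12359, at 73.4% of its counts. Smg1, the kinase that starts decay, was at -0.53 ± 0.08 with luteolin (adjusted p = 0.000456).

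**Figure D5:**
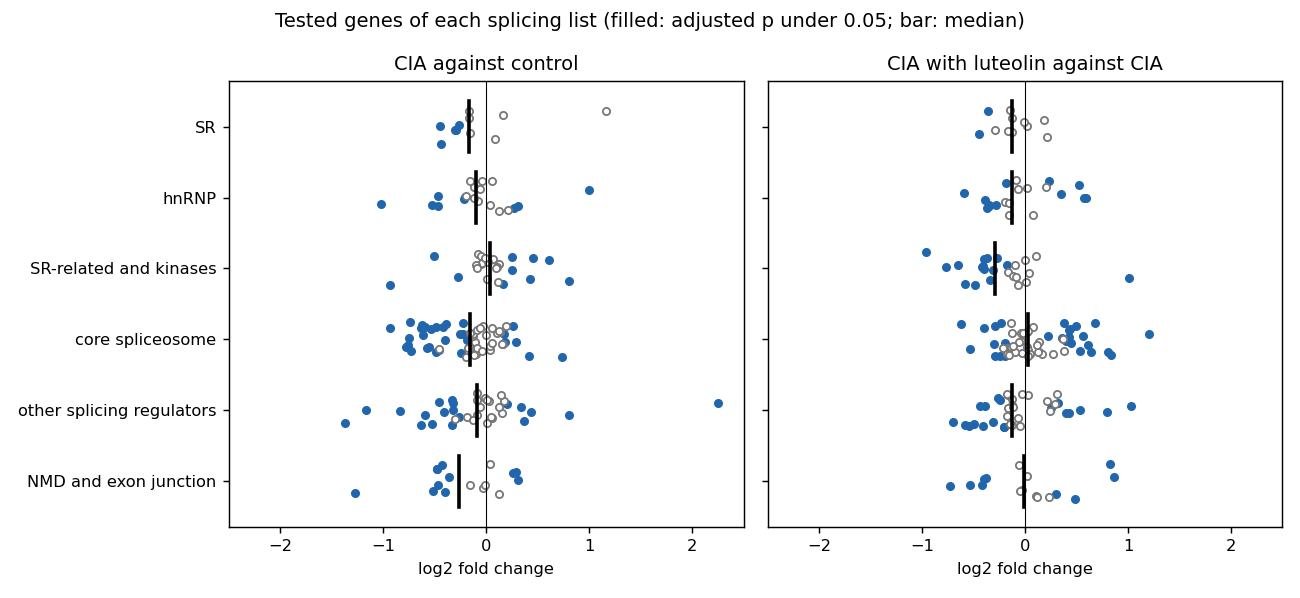
Log2 fold change of the tested genes of the SR and hnRNP families and of 4 lists of genes that act with them, in CIA against control (left) and CIA with luteolin against CIA (right), with filled points for an adjusted p below 0.05 and a bar at the median. The SR-related proteins and kinases have a median of -0.29 with luteolin against CIA, and the core spliceosome a median of -0.16 in CIA against control.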

How the data were processed

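Per the labels, total RNA was made into stranded mRNA libraries and sequenced as read pairs. Per the submitters' processing notes, reads were trimmed with Trimmomatic 0.36 and the build was mm39. The labels' protocols name the aligner STRA, version 2.5.3a, and CHOK1GS, a hamster genome, as reference, while the table lists mouse genes. The deposited table holds raw read counts over the exons of each gene, for which the authors used featureCounts (Subread 1.5.1), per the labels. Strand setting, annotation release and handling of reads on several genes are not given in the sources used here. Of 84618 values from 1 to 10, 73.4% were even, so both mates of a pair may have been counted. Replicates of a group differed beyond counting noise in every pair (chi-square over degrees of freedom at least 5.51), so none was a plain copy of another. These values cannot tell repeated libraries from separate animals or pools.

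The counts entered edgeR 4.0.16 (R 4.3.3) without change. The table holds 56860 genes, 17069 of them without a count, and filterByExpr kept 19348. All 9 libraries, with TMM factors of 0.95 to 1.02, went into a quasi-likelihood fit with the group as its factor. Comparisons were 2-sided with Benjamini-Hochberg adjustment over all tested genes and a threshold of 0.05. The SE is the log2 fold change divided by the root of F. The procedure was tested on simulated data. Alternatives were other scalings, DESeq2 1.42.0, no filter or a filter of 1 CPM in 3 libraries, the 6 libraries compared alone, a replicate block and leaving out each library, 17 settings in all. Depth sets the precision for low genes such as Srsf12, and intervals over counts were not needed.

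Copies were sought with blastn 2.17.0 among 12264 pseudogene transcripts of GENCODE M21 at 95% identity over 150 bases. Coordinates of genes are those of the table. The members and lists were chosen with earlier results of these data known. Values in every library are given for the 5 called members of each family with the largest change in each of the first 2 comparisons, the 2 highest per kb, Hnrnpll and the 3 members with the largest opposite calls. From each other list up to 3 genes with the smallest p were named per comparison, and Mki67, Cd4, Cd3e, S100a9, Cd79a and Csf1r as markers. Skipped were Srsf3-ps, Hnrnpa1l2-ps and Hnrnpa1l2-ps2, with 166, 40 and 488 counts in all.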

Additional observations from a re-analysis of the deposited data

How the results depend on the processing

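No called member, and no called gene named from the lists of genes that act with them, changed direction under the 17 alternatives. In CIA against control, Srsf1, Srsf5, Srsf7, Hnrnpa1, Hnrnpa3, Hnrnpm, Hnrnpr, Hnrnpdl and Hnrnpll were called in the main fit and under every alternative, and with luteolin against CIA Hnrnpa1, Hnrnpa3, Hnrnpm, Hnrnpu, Hnrnpdl, Hnrnph3, Hnrnpl and Srsf11 were. The cause of the following moves was not tested. Fitting only the 6 libraries compared gave 3 lower SR genes, 3 higher core spliceosome genes and 1 higher decay gene in CIA against control, 1 lower SR gene and 3 lower core spliceosome genes with luteolin against CIA, and 25 lower core spliceosome genes, 3 higher other regulators and 2 higher decay genes with luteolin against control. With total counts or with no filter, 3 core spliceosome genes were higher in CIA. With no filter, 5 core spliceosome genes were lower with luteolin against CIA, and 7 lower and 2 other regulators higher with luteolin against control. SR genes higher with luteolin against CIA numbered 1 with DESeq2 size factors or total counts, and 2 with DESeq2's Wald test or the stricter filter. Upper-quartile scaling shifted the median of all genes with luteolin against CIA to -0.10, which changes are to be read against, and put the luteolin sums at 3471 CPM for SR and 19063 CPM for hnRNP.

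Leaving out each library in turn gave, in CIA against control, 0 to 1 higher and 3 to 6 lower SR genes, 3 to 6 higher core spliceosome genes, 3 to 6 higher other regulators and 1 to 3 higher decay genes. With luteolin against CIA it gave 0 to 2 higher and 1 to 2 lower SR genes, 3 to 6 higher and 4 to 8 lower hnRNP genes, 1 to 2 higher SR-related genes, 3 to 12 lower core spliceosome genes and 4 to 9 higher other regulators. With luteolin against control it gave 4 to 9 lower hnRNP genes, 4 to 21 lower core spliceosome genes, and 1 to 3 higher and 13 to 24 lower other regulators.

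Groups share replicate numbers, which the labels do not tie to a shared animal or day. Deviations of same-numbered libraries correlated at 0.0065 to 0.143, all positive, and those of differently numbered libraries at -0.177 to 0.0919. Whether the numbers mark a shared effect was not tested. The main fit did not pair the samples, and the replicate block was fitted as an alternative. The replicate block gave 1 higher SR gene with luteolin against CIA, Srsf1 at 0.19, and 2 higher decay genes with luteolin against control, and not every library correlated best with its own number.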
